A study of Mus musculus with 8 samples.

Results

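The transcripts described here are the cytochrome P450 genes of families 1 to 3 on a mouse whole-transcript array, taken as every transcript cluster, the set of probes that stands for a gene, whose platform annotation lists a symbol of the form Cyp1, Cyp2 or Cyp3 followed by a subfamily letter and a number. Of 35556 transcript clusters in the deposited table, 23410 had at least 1 gene symbol and 58 met this rule, 53 of them with 1 symbol and 5 with several. All 58 were tested, with no filter on signal. They fell into 16 subfamilies, of which Cyp2c had 14 clusters, Cyp2d 10, Cyp3a 9, Cyp2j 6, Cyp2b 5, Cyp2a 3 and Cyp1a 2. The subfamilies Cyp1b, Cyp2e, Cyp2f, Cyp2g, Cyp2r, Cyp2s, Cyp2t, Cyp2u and Cyp2w had 1 each.

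The series asked how inorganic arsenic and dietary fat act together on gene expression in mouse liver. All mice were male C57Bl/6J. Fat made up 13% of calories in the low-fat diet (LFD) and 42% in the high-fat diet (HFD). Drinking water was deionized, and in the groups LFD+As and HFD+As it carried sodium arsenite, at 3 mg/L of inorganic arsenic. The labels' protocol gives 10 weeks of exposure and the source label gives 90 days, and both are quoted here because the labels do not settle which holds. Each group had 10 mice, 40 in all, and each array received the pooled liver RNA of 5 of them, so that a group had 2 arrays. The spread between arrays is therefore a spread between pools of 5 mice, and the p-values below measure that spread. Arsenic was given at 1 concentration in drinking water, and the arrays show transcripts of whole liver, where fewer cells of a type and less RNA per cell cannot be told apart.

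P450 enzymes are haem proteins of the endoplasmic reticulum that oxidise drugs, pollutants, steroids and fatty acids with electrons passed on by NADPH-cytochrome P450 reductase and cytochrome b5. Family 1 is known for induction by ligands of the aryl hydrocarbon (Ah) receptor, and much of subfamilies 2a, 2b, 2c and 3a for induction through the receptors CAR (Nr1i3) and PXR (Nr1i2). In mouse liver several members also differ between the sexes under growth hormone and STAT5B.

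Promoter sequence is shown for Cyp1a1 and Cyp2b9, which passed the test below, each beside a close relative that did not pass it, since the receptors named above act on DNA near these genes. Each line gives the 250 bases before the transcription start, 5′ to 3′ on the strand of the gene, from RefSeq on build GRCm38.p6. The table used matched 44 of 53 single-symbol members, and Cyp2d22 was not matched. Capitals mark the core of the Ah receptor site (GCGTG, or CACGC where it lies on the other strand), a nuclear receptor hexamer (AGGTCA) and a TATA box (TATAAA).
Cyp1a1: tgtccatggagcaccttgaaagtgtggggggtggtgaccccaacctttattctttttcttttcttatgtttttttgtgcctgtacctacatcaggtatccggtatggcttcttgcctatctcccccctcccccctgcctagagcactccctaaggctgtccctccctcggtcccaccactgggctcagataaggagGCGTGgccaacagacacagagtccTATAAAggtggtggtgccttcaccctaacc
Cyp1a2: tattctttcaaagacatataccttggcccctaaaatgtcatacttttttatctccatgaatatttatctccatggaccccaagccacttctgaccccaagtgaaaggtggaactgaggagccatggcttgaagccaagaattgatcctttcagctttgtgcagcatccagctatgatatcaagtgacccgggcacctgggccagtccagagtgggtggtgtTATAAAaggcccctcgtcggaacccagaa
Cyp2b9: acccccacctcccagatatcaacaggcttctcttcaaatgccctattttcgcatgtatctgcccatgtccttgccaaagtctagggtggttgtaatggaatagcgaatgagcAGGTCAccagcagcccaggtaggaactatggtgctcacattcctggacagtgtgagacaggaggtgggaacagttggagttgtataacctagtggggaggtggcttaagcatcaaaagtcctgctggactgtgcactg
Cyp2b10: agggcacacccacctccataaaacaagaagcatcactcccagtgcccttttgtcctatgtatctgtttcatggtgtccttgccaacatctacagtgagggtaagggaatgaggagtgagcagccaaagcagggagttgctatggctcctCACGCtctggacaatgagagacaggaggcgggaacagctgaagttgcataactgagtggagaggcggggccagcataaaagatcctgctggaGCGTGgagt
The Cyp1a1 window lies at chr9:57697363-57697612 on the plus strand and the Cyp1a2 window at chr9:57683656-57683905 on the minus strand, so this pair of genes points away from each other. The Cyp2b9 window lies at chr7:26173159-26173408 and the Cyp2b10 window at chr7:25897408-25897657, both on the plus strand.

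In these windows the Ah receptor core began 54 bases before the start of Cyp1a1 and was not among the letters of the Cyp1a2 window, while a TATA box began 30 and 29 bases before the respective starts. Cyp2b9 held the hexamer AGGTCA 138 bases before its start, and Cyp2b10 held the Ah receptor core on the minus strand at 101 and on the plus strand at 9 bases before its start. The Cyp1a1 and Cyp1a2 windows were 45.4% identical and those of Cyp2b9 and Cyp2b10 70.0%, against a median of 46.6% over all 946 pairs of members. The Cyp2b9 window was 99.2% identical to that of Cyp2b13. RefSeq windows were matched for 44 of the 53 single-symbol members. GCGTG was found on either strand in 8 of the 44 (18.2%) and in 28.2% of all 32851 windows of this length, and its longer form TNGCGTG in 1 (2.27%) and in 4.10% of all. AGGTCA was found in 14 members (31.8%) against 14% of all windows, TTCNNNGAA, the letters of a STAT site, in 2 (4.55%) against 7.02%, and TATAAA in 21 (47.7%) against 12.4%. These are matches of letters on either strand, not sites known to be bound, and GCGTG is contained in TNGCGTG. Sites farther than 250 bases before the start were not searched, and a link between these letters and the calls below was not tested.

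The arrays were alike in their overall signal. Medians of the deposited log2 signals lay between 7.08 and 7.18, and arrays correlated at 0.980 to 0.995 over the annotated clusters. All 6 hepatocyte markers (such as Alb and Cps1) lay at or above percentile 99.0 of signal, while all 4 markers of small intestine and lung, tissues that also express some of these P450 genes, lay outside the brightest 60%. Of the 58 members, 42 were in the brightest 60% of annotated clusters (mean log2 signal above 7.01) and 16 were not; no detection calls were used here, so dim signals may be background. One property of the arrays moved with the groups. The rank correlation of an array's deviation with the genomic span of the gene was -0.36 and -0.30 in HFD+As and between -0.08 and 0.33 on the other 6 arrays, and values with that trend removed stand beside the calls they end.

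Differences are on the log2 scale from one limma fit of 4 group means to all 8 arrays, given as the difference ± its standard error, with p-values adjusted by Benjamini-Hochberg over the 23410 annotated clusters and a threshold of 0.05. High fat together with arsenic, against the low-fat diet alone, was the comparison in which members passed it. Comparisons with LFD share its 2 pools. There were 3 of 58 members that passed in HFD+As against LFD (5.17%), against 4.57% of all annotated clusters. Cyp1a1 rose, and Cyp2b9 and Cyp2d22 fell, where 1.94% of all clusters rose and 2.64% fell. With the span trend removed 2 members (Cyp1a1 and Cyp2d22) and 365 clusters (1.56%) passed. A fit limited to the brightest 60% of clusters held 42 of the members and called 3 of them (Cyp2b9, Cyp2d22 and Cyp2c23). It called 13.5% of all its clusters, so 4.57% is not a like-for-like share for members this bright. In the other 5 comparisons, which include the test of the interaction, the percentage of annotated clusters called was 0 and so was the number of members. At the looser mark of an unadjusted p under 0.05, 13 members (22.4%) stood out in HFD+As against LFD, where 20.6% of all clusters did, so this share was near the background. Of the 13, 1 was higher and 12 lower, with 7.13% of all clusters higher and 13.4% lower at this mark.

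**Figure D1:**
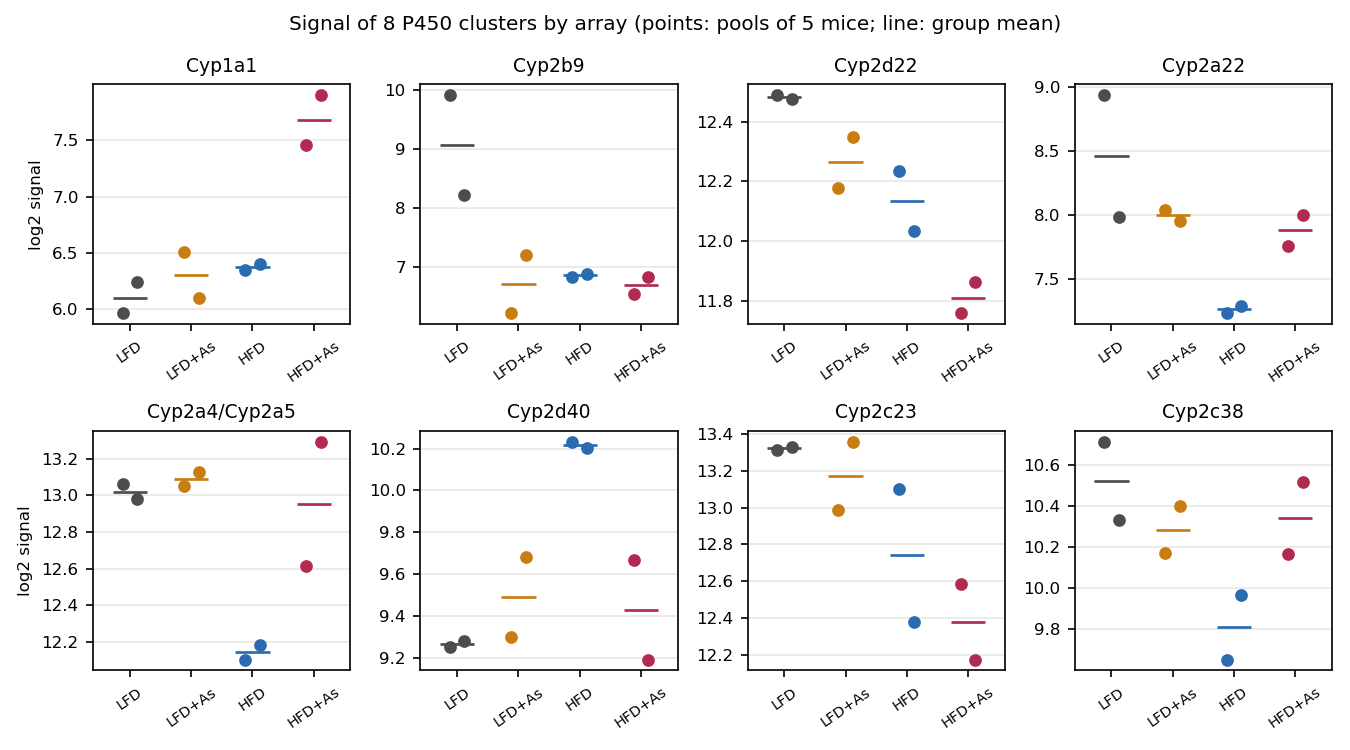
Log2 signal of 8 P450 clusters on each array, by group; each point is a pool of 5 mice and each line a group mean. Both HFD+As pools lie above all 6 others for Cyp1a1, both LFD pools above all others for Cyp2b9, and both HFD pools below all others for Cyp2a22 and the cluster listed for Cyp2a4 and Cyp2a5.

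Cyp1a1, which oxidises polycyclic aromatic hydrocarbons and is the usual marker of Ah receptor activity, was the member with the smallest p-value in any comparison. Its log2 signal was 5.96 and 6.24 in the LFD pools, 6.50 and 6.10 in the LFD+As pools, 6.35 and 6.40 in the HFD pools and 7.46 and 7.90 in the HFD+As pools. Both HFD+As pools stood above all other arrays. Both HFD pools lay above both LFD pools, and the LFD+As pools overlapped each of those groups. Cyp1a1 rose by 1.58 ± 0.18 in HFD+As against LFD, a 2.99-fold difference (limma adjusted p = 0.0292). Against HFD alone the difference was 1.31 ± 0.18 (adjusted p = 0.0946) and against LFD+As 1.38 ± 0.18 (adjusted p = 0.0791), so neither passed; with a trended robust variance prior both did, with adjusted p of 0.0123 and 0.0136. Arsenic on the low-fat diet gave 0.20 ± 0.18 and the high-fat diet alone 0.27 ± 0.18. The interaction, the amount by which arsenic's difference on the high-fat diet exceeded that on the low-fat diet, was 1.10 ± 0.26 (unadjusted p = 0.00196, adjusted p = 0.548). The call was lost when any 1 array of LFD or HFD+As was left out, with adjusted p from 0.0588 to 0.142 and differences from 1.36 to 1.80. Cyp1a1 lies below the signal level of the brightest 60% of clusters, so fits limited to those did not test it.

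The other members of family 1 did not pass the test. Cyp1a2, which metabolises caffeine and many aromatic amines and is abundant in hepatocytes, read 13.14 and 13.08 in the LFD pools, 13.04 and 13.39 in the LFD+As pools, 13.30 and 13.15 in the HFD pools and 13.12 and 13.07 in the HFD+As pools. The HFD+As pools lay within the range of the other arrays, and the difference from LFD was -0.02 ± 0.14, with a 95% interval from -0.32 to 0.29. Cyp1b1, the family member of extrahepatic tissues, stayed between 6.40 and 6.70 on all 8 arrays and differed by -0.09 ± 0.13 (95% interval -0.37 to 0.19). Both intervals exclude a difference in array signal of the size seen for Cyp1a1. Cyp1b1 lay below the mean log2 signal of 7.01 given above, so its signal may be background. Its interval therefore does not limit a difference in the transcript. The highest log2 signal in the data was 14.8, and whether signals as high as those of Cyp1a2 can show a full rise was not tested.

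The Ah receptor and its partners were read on the same arrays. Ahr, the ligand-binding subunit, read 10.17 and 10.08 in LFD and 9.89 and 10.05 in HFD+As, a difference of -0.15 ± 0.12 (adjusted p = 0.547). It differed by 0.25 ± 0.12 in LFD+As and by -0.01 ± 0.12 in HFD against LFD, and by -0.40 ± 0.12 in HFD+As against LFD+As. Arnt, the subunit with which it binds DNA, read 10.65 and 10.57 in the LFD pools, 10.47 and 10.55 in the LFD+As pools, 10.55 and 10.28 in the HFD pools and 9.80 and 10.14 in the HFD+As pools. The 2 lowest of the 8 values were those of the HFD+As pools, and Arnt fell by 0.64 on the log2 scale against LFD (SE 0.14, adjusted p = 0.0427). With the span trend removed the value was -0.50 (adjusted p = 0.0824), and without any 1 array of LFD, LFD+As or HFD+As the adjusted p was 0.0622 to 0.240. Ahrr, the repressor of the receptor, differed by -0.14 ± 0.15. Of 3 other known Ah receptor targets that could be read from a single-symbol cluster, 0 passed in HFD+As against LFD, where 4.57% of all annotated clusters did. With so few genes, this count says little about the receptor. Nqo1, a quinone reductase that also answers to oxidative stress, read 7.82 and 7.20 in LFD and 7.83 and 9.03 in HFD+As, with 1 HFD+As pool level with the higher LFD pool, and its difference of 0.92 ± 0.34 had an adjusted p of 0.162. Tiparp, which dampens the receptor, differed by -0.37 ± 0.11 (adjusted p = 0.0923) and Aldh3a1 by -0.06 ± 0.12.

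In subfamily 2b the call belonged to Cyp2b9, a steroid hydroxylase known for higher levels in female than in male mouse liver. Its log2 signal was 9.91 and 8.22 in the LFD pools, 6.21 and 7.20 in the LFD+As pools, 6.82 and 6.88 in the HFD pools and 6.54 and 6.82 in the HFD+As pools. Both LFD pools were above the other 6 arrays, and the LFD pools themselves differed by 1.70, the widest gap between pools of any member in any group. Cyp2b9 fell by 2.38 on the log2 scale in HFD+As against LFD (SE 0.47), a level 5.22-fold lower (adjusted p = 0.0336). The differences from LFD were -2.21 ± 0.47 in HFD (adjusted p = 0.336) and -2.36 ± 0.47 in LFD+As (adjusted p = 0.921), of like size but not past the threshold; all 3 comparisons share the same LFD pools. HFD+As differed from HFD by -0.17 ± 0.47. Leaving out LFD replicate 1, the highest pool, gave -1.54 in HFD+As against LFD (adjusted p = 0.0805) and leaving out LFD replicate 2 gave -3.23 (adjusted p = 0.0460); without either HFD+As or either LFD+As array the adjusted p was 0.0546 to 0.209, with the span trend removed it was 0.0504, and with a trended robust variance prior 0.145.

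The other Cyp2b clusters did not pass. Cyp2b10, the classic target of CAR, read 9.47 and 9.04 in the LFD pools, 8.71 and 9.33 in the LFD+As pools, 8.86 and 9.39 in the HFD pools and 9.20 and 9.75 in the HFD+As pools. Its groups overlapped, and HFD+As differed from LFD by 0.22 ± 0.27 (95% interval -0.38 to 0.82). Cyp2b13, whose sequence is close to Cyp2b9 and which is also known as female-biased, read 5.21 and 5.92 in the LFD pools, 5.38 and 5.32 in the LFD+As pools, 4.90 and 5.01 in the HFD pools and 5.40 and 5.21 in the HFD+As pools. Its difference in HFD against LFD was -0.61 ± 0.20 (unadjusted p = 0.0130, adjusted p = 0.550), at a signal in percentile 5.69 of annotated clusters. Cyp2b19, a skin epoxygenase, and Cyp2b23 differed by -0.34 ± 0.12 and -0.24 ± 0.16 in HFD, and by -0.18 ± 0.12 and -0.28 ± 0.16 in HFD+As. All 5 Cyp2b clusters were thus lower in HFD than in LFD, where 77.6% of all members and 56.5% of all annotated clusters were. In HFD+As 4 of 5 were lower, where 72.4% of all members and 56.1% of all annotated clusters were.

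Among the receptors, CAR itself rose. Nr1i3 read 9.73 and 9.32 in the LFD pools, 10.14 and 9.71 in the LFD+As pools, 9.61 and 9.74 in the HFD pools and 10.37 and 10.57 in the HFD+As pools. The HFD+As pools were above all others, and Nr1i3 rose by 0.95 ± 0.18 against LFD, 1.93-fold (adjusted p = 0.0321). Without any 1 array of LFD, LFD+As or HFD+As the adjusted p was 0.0528 to 0.194. Its differences in the other comparisons were 0.15 ± 0.18 in HFD and 0.40 ± 0.18 in LFD+As against LFD, and 0.80 ± 0.18 in HFD+As against HFD. Nr1i2, encoding PXR, differed by 0.06 ± 0.13 in HFD+As against LFD, and by at most 0.15 in size in the other pairwise comparisons. Of 10 members known as inducible through CAR or PXR (among them Cyp2b10, Cyp2c29, Cyp2c37, Cyp2c55 and Cyp3a11), 0 passed in HFD+As against LFD, where 4.57% of all annotated clusters did. Of these 10, 9 lay below LFD, as did 72.4% of all members and 56.1% of all annotated clusters. Their median was -0.13, beside -0.03 for all annotated clusters. In HFD against LFD the same 10 had a median of -0.15, beside -0.02 for all.

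Cyp2d22 was the third called member. It belongs to the subfamily that metabolises many amine drugs in humans, and its log2 signal was 12.49 and 12.47 in the LFD pools, 12.18 and 12.35 in the LFD+As pools, 12.23 and 12.03 in the HFD pools and 11.76 and 11.86 in the HFD+As pools. Both LFD pools were the highest and both HFD+As pools the lowest of the 8. Cyp2d22 fell by 0.67 on the log2 scale in HFD+As against LFD (SE 0.12), 1.59-fold lower (adjusted p = 0.0317). The difference was -0.35 ± 0.12 in HFD (adjusted p = 0.568), -0.22 ± 0.12 in LFD+As, -0.32 ± 0.12 between HFD+As and HFD, and -0.45 ± 0.12 between HFD+As and LFD+As (adjusted p = 0.0973). The call was lost without any 1 array of LFD, LFD+As or HFD+As (adjusted p from 0.0567 to 0.194), with differences from -0.62 to -0.72.

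Of the other 9 Cyp2d clusters, which sit beside Cyp2d22 in one gene cluster, 0 passed in HFD+As against LFD, where 4.57% of all annotated clusters did. Cyp2d13, a transcribed pseudogene, read 10.50 or more on all arrays and differed by -0.30 ± 0.13. Cyp2d37-ps, another one, differed by -0.29 ± 0.13. Cyp2d9, a steroid hydroxylase known to be higher in male liver, differed by -0.12 ± 0.13, Cyp2d26 by -0.17 ± 0.11, Cyp2d10 by 0.13 ± 0.12, Cyp2d11 by -0.13 ± 0.11, Cyp2d12 by 0.05 ± 0.17 and Cyp2d34 by 0.00 ± 0.12.

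Cyp2d40 had its highest pools on the high-fat diet alone. It read 9.25 and 9.28 in the LFD pools, 9.30 and 9.68 in the LFD+As pools, 10.23 and 10.20 in the HFD pools and 9.67 and 9.19 in the HFD+As pools. Both HFD pools lay above all 6 other arrays, and Cyp2d40 was the 1 member of 58 (1.72%) for which this was so, against 4.31% of all clusters. Its difference was 0.95 ± 0.17 in HFD against LFD (unadjusted p = 0.000351, adjusted p = 0.227), -0.79 ± 0.17 in HFD+As against HFD (adjusted p = 0.150), and 0.16 ± 0.17 in HFD+As against LFD. The interaction was -1.01 ± 0.25 (unadjusted p = 0.00241, adjusted p = 0.548). In a fit limited to 1 cluster per gene among the brightest 60%, the differences in HFD against LFD and in HFD+As against HFD passed, with adjusted p = 0.0197 and 0.0284.

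**Figure D2:**
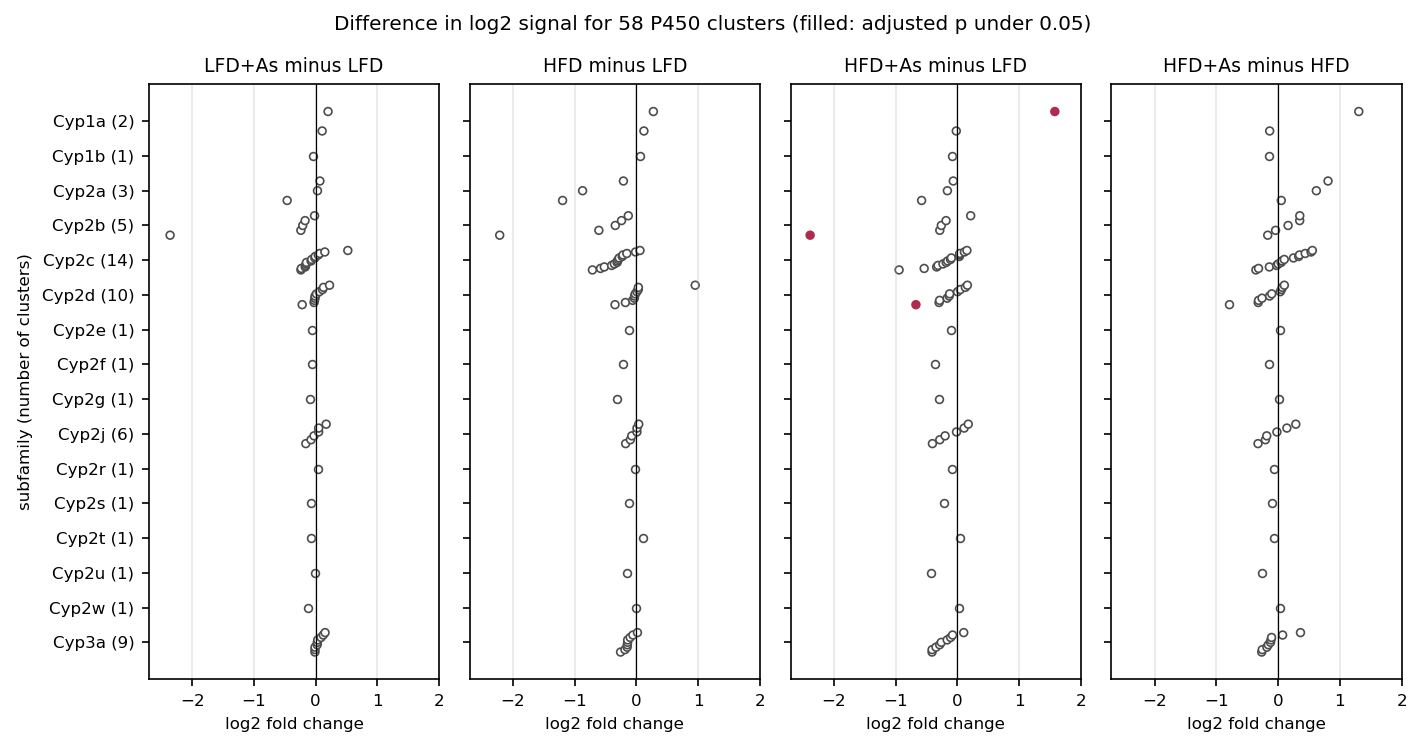
Difference in log2 signal of each of the 58 clusters in 4 comparisons, arranged by subfamily; a filled point passed an adjusted p of 0.05. In HFD against LFD all Cyp2a and Cyp2b points and 13 of 14 Cyp2c points lie below 0, and filled points appear in HFD+As against LFD only, for Cyp1a1, Cyp2b9 and Cyp2d22.

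On the high-fat diet alone, lower signals were most marked in Cyp2a, Cyp2b and Cyp2c among subfamilies with more than 1 cluster, without a single adjusted call. In HFD against LFD, 45 of 58 members (77.6%) were lower and 13 higher, where 56.5% of all annotated clusters were lower. The member median was -0.15, beside -0.02 for all annotated clusters. The limma test called 0 members and 0 clusters; at an unadjusted p under 0.05 it marked 16 members (27.6%), against 7.71% of all clusters. Of the 16, 15 were lower and 1 higher, where 3.19% of all clusters were lower and 4.52% higher at this mark. Both HFD pools lay below both LFD pools for 27 members (46.6%), against 19.2% of all clusters, and above them for 3 (5.17%; Cyp1a1, Cyp1a2 and Cyp2d40), against 17.2%. Against all 6 other arrays, both HFD pools were lowest for 11 members (19.0%), while 4.04% of all clusters showed this. The subfamily medians were -0.87 in Cyp2a, -0.34 in Cyp2b and -0.30 in Cyp2c, beside -0.14 in Cyp3a and -0.03 in both Cyp2d and Cyp2j. The sum of 6 macrophage markers was 7257 to 7693 signal units (linear scale) in HFD and 6416 to 6451 in LFD, and that of 6 hepatocyte markers 87114 to 94087 and 94418 to 94786; their part in the lower P450 signals was not tested.

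Subfamily 2a held the lowest of these medians. The cluster listed for Cyp2a4 and Cyp2a5, enzymes of testosterone and coumarin hydroxylation whose transcripts the array could not tell apart, read 13.06 and 12.98 in the LFD pools, 13.05 and 13.13 in the LFD+As pools, 12.11 and 12.19 in the HFD pools and 12.62 and 13.29 in the HFD+As pools. Both HFD pools were below all others, with a difference of -0.87 ± 0.19 from LFD (unadjusted p = 0.00114, adjusted p = 0.355). With arsenic the high-fat pools lay higher, by 0.81 ± 0.19 (adjusted p = 0.157), and HFD+As differed from LFD by -0.07 ± 0.19. Cyp2a22, an enzyme of the same subfamily, read 8.94 and 7.99 in the LFD pools, 8.04 and 7.96 in the LFD+As pools, 7.24 and 7.29 in the HFD pools and 7.76 and 8.0 in the HFD+As pools. Its HFD pools were again the lowest, with a difference from LFD of -1.20 ± 0.25 (unadjusted p = 0.000906, adjusted p = 0.325). This difference was -0.72 without LFD replicate 1 and -1.67 without LFD replicate 2, when it passed (adjusted p = 0.0137). Cyp2a12, a steroid hydroxylase, read between 12.71 and 13.08 and differed by -0.21 ± 0.12.

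Subfamily 2c makes epoxides and hydroxides of arachidonic acid and metabolises many drugs. In HFD against LFD, 13 of its 14 clusters were lower, 9 of them at an unadjusted p under 0.05 and 0 after adjustment. The smallest p was that of Cyp2c38, an arachidonic acid epoxygenase, which read 10.71 and 10.33 in the LFD pools, 10.17 and 10.40 in the LFD+As pools, 9.65 and 9.97 in the HFD pools and 10.17 and 10.52 in the HFD+As pools. Both HFD pools were below the rest, with a difference of -0.71 ± 0.18 (unadjusted p = 0.00316, adjusted p = 0.473). Cyp2c39, an enzyme of retinoic acid hydroxylation, differed by -0.52 ± 0.24, Cyp2c68 by -0.40 ± 0.15, Cyp2c54 by -0.36 ± 0.11, Cyp2c67 by -0.23 ± 0.10 and the cluster listed for Cyp2c40, Cyp2c67, Cyp2c68 and Cyp2c69 by -0.29 ± 0.11. These 6 clusters and Cyp2c50 (-0.16 ± 0.11) had both HFD pools below all other arrays, and all 7 lay between -0.18 and 0.11 of LFD in HFD+As. Against HFD alone, the HFD+As pools were higher by 0.06 to 0.55 in these 7 clusters, a sign that the choice of clusters fixes, with no adjusted call.

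Other members of subfamily 2c were lower than in LFD in both high-fat groups. Cyp2c23, an arachidonic acid epoxygenase, read 13.32 and 13.33 in the LFD pools, 12.99 and 13.36 in the LFD+As pools, 13.10 and 12.38 in the HFD pools and 12.59 and 12.18 in the HFD+As pools. The 3 lowest values were those of both HFD+As pools and HFD replicate 2. The difference from LFD was -0.58 ± 0.23 in HFD and -0.94 ± 0.23 in HFD+As (limma adjusted p = 0.0544). The HFD+As difference passed in the brightest 60% of clusters (adjusted p = 0.0299) and with 1 cluster per gene among those (0.0110). It also passed with the replicate number as a block (0.0275), and with the span trend removed as well (0.0441). It did not pass with the span trend alone removed (0.0845), quantile normalization (0.0617) or a trended robust prior (0.130). Nor did it with all clusters (0.144) or the compared arrays alone (0.0510). With 1 array of LFD or HFD+As left out it ranged from -1.15 to -0.74. Cyp2c70, which hydroxylates bile acids to muricholates in the mouse, read 13.46 and 13.55 in the LFD pools, 13.33 and 13.35 in the LFD+As pools, 13.23 and 13.16 in the HFD pools and 13.20 and 13.15 in the HFD+As pools. It was -0.31 ± 0.10 in HFD and -0.33 ± 0.10 in HFD+As (limma adjusted p = 0.104). With a trended robust variance prior, which called 7.8% of all annotated clusters, the HFD+As difference passed (adjusted p = 0.0288). Cyp2c37, which forms 12-HETE, was -0.31 ± 0.11 in both. For Cyp2c70 and Cyp2c37 both LFD+As pools also lay below both LFD pools, so their lower signals were not confined to the high-fat groups.

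The remaining Cyp2c clusters showed small or uneven differences. Cyp2c29, an epoxygenase inducible through CAR, stayed between 13.12 and 13.43 on all arrays and differed by -0.16 ± 0.13 in HFD+As against LFD. Cyp2c55, another CAR and PXR target, read 8.29 and 7.62 in the LFD pools, 7.91 and 9.04 in the LFD+As pools, 7.66 and 7.81 in the HFD pools and 7.25 and 7.59 in the HFD+As pools. Its highest value came from LFD+As replicate 2 alone, 1.13 above the other LFD+As pool; the difference of LFD+As from LFD was 0.52 ± 0.33, and that of HFD+As from LFD+As -1.06 ± 0.33 (adjusted p = 0.133). Cyp2c50 differed from LFD by -0.10 ± 0.11 in HFD+As, Cyp2c66 by -0.23 ± 0.12 and Cyp2c65 by 0.16 ± 0.16.

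**Figure D3:**
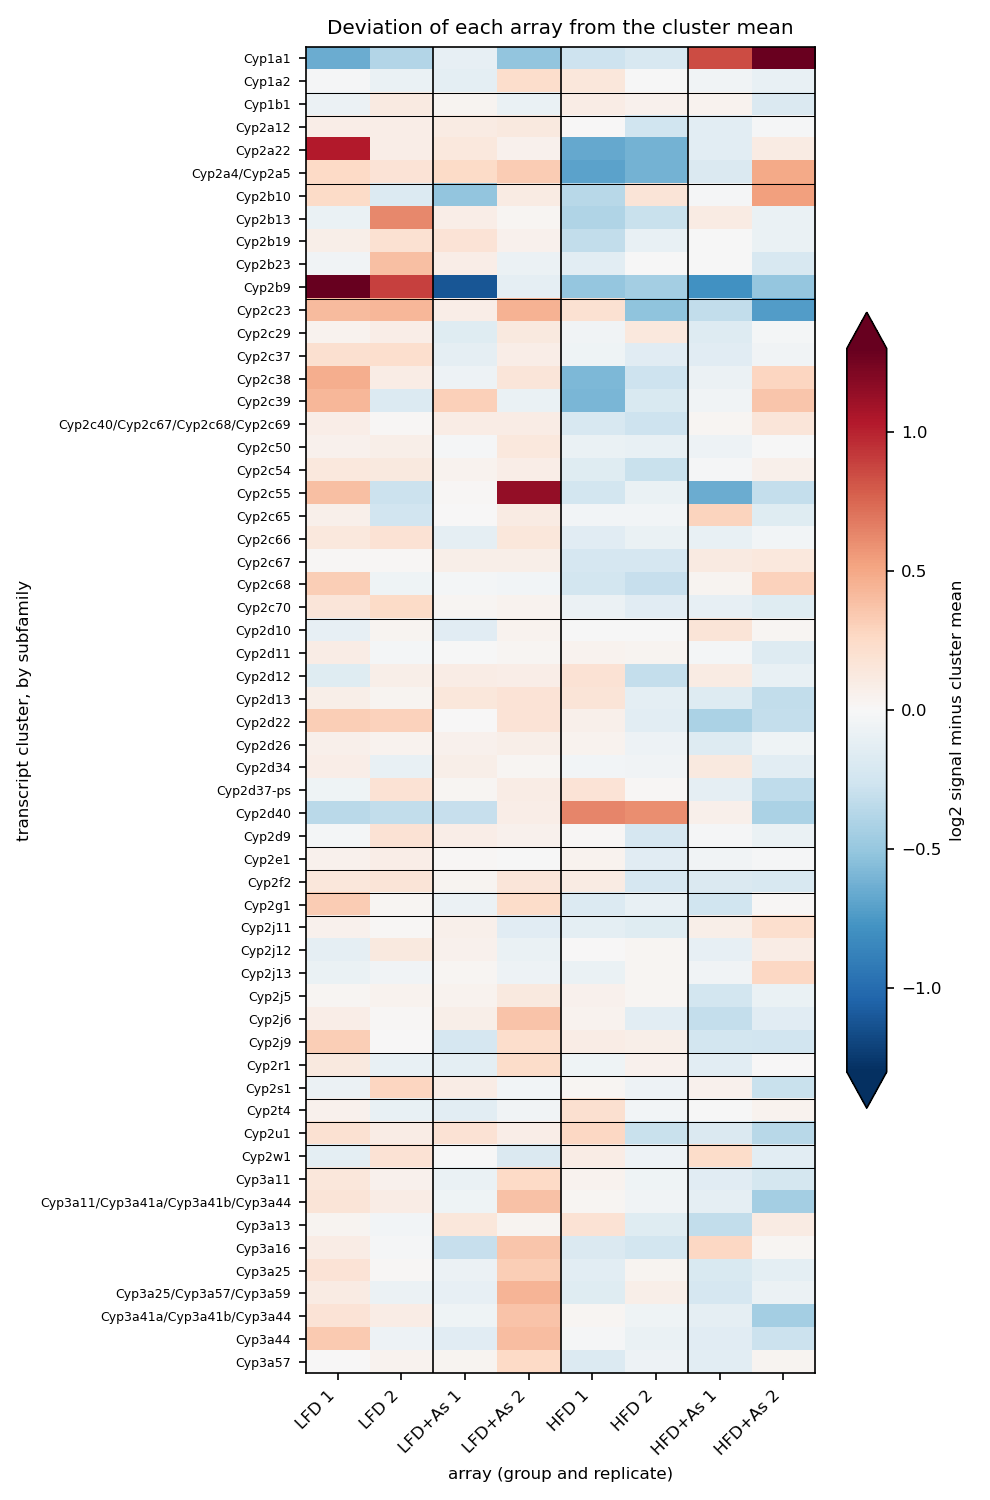
Deviation of each array's log2 signal from the mean of the cluster over 8 arrays, for all 58 members by subfamily; red is above the mean, blue below, and values beyond the arrows share the end colour. The HFD columns are blue through Cyp2a and most of Cyp2c, the LFD+As replicate 2 column is red through Cyp3a, and Cyp1a1 is red in both HFD+As columns.

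In HFD+As against LFD, 42 of 58 members (72.4%) were lower, where 56.1% of all annotated clusters were. The member median was -0.16, beside -0.03 for all annotated clusters. Without the span trend this median was -0.09. The sum of 6 stellate cell markers was 7593 to 7823 signal units in HFD+As and 9318 to 9477 in LFD, and that of 6 hepatocyte markers 86103 to 90489 and 94418 to 94786. The sum of 4 cholangiocyte markers was 672 to 685 and 775 to 861, and that of 6 macrophage markers 4866 to 6085 and 6416 to 6451, although 1 of the 6, Marco, rose by 0.54 (adjusted p = 0.0359). The part of these markers in the P450 differences was not tested. Both HFD+As pools lay below both LFD pools for 29 members (50.0%), against 29.1% of all clusters, and above them for 3 (5.17%; Cyp1a1, Cyp2c67 and Cyp2j11), against 16.3%. They were lowest of all 8 arrays for 11 members (19.0%) where 17.1% of all clusters were, a share near the background. They were highest for the same 3 as above, where 7.44% of all clusters were.

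Subfamily 3a, the main drug-oxidising P450 group of liver and intestine, showed differences mostly of one sign. In HFD+As against LFD, 8 of 9 clusters were lower, 0 passed, and the median was -0.26. Of all 58 members 72.4% were lower, and of all annotated clusters 56.1% were lower and 4.57% passed. Cyp3a11, the counterpart of human CYP3A4 and the standard PXR target in the mouse, read 13.72 and 13.63 in the LFD pools, 13.49 and 13.84 in the LFD+As pools, 13.63 and 13.52 in the HFD pools and 13.43 and 13.35 in the HFD+As pools. Both HFD+As pools were the lowest, with a difference of -0.29 ± 0.13 (adjusted p = 0.269; 95% interval -0.59 to 0.01). Cyp3a25 differed by -0.26 ± 0.15, Cyp3a13 by -0.11 ± 0.17, Cyp3a44 by -0.35 ± 0.19, Cyp3a57 by -0.08 ± 0.12 and the cluster listed for Cyp3a25, Cyp3a57 and Cyp3a59 by -0.16 ± 0.18. Cyp3a16, a fetal and female form, read between 4.17 and 4.83 and differed by 0.10 ± 0.19. The cluster listed for Cyp3a41a, Cyp3a41b and Cyp3a44 and the one that lists Cyp3a11 as well both differed by -0.41 ± 0.16; they were never more than 0.0138 apart on an array, so they are not independent of each other, and the counts of members here hold both. LFD+As replicate 2 was the highest of the 8 arrays for 8 of the 9 Cyp3a clusters, while LFD+As replicate 1 was the highest for 0. This count includes both of the near-identical clusters, and it was not made over all annotated clusters.

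Subfamily 2j, whose enzymes epoxidise arachidonic acid, gave no call. Cyp2j5, the abundant hepatic form, read 12.93 and 12.94 in the LFD pools, 12.94 and 13.02 in the LFD+As pools, 12.95 and 12.93 in the HFD pools and 12.66 and 12.81 in the HFD+As pools. The HFD+As pools were below the rest, with a difference of -0.20 ± 0.11 against LFD (adjusted p = 0.351). Cyp2j6 and Cyp2j9 also had their lowest pools in HFD+As, with -0.28 ± 0.14 and -0.40 ± 0.16. Cyp2j11, Cyp2j12 and Cyp2j13, all at log2 signals of 6.44 or less, differed by 0.11 ± 0.12, -0.01 ± 0.13 and 0.18 ± 0.13.

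The subfamilies with 1 cluster each gave no call in the fit reported either. Cyp2e1, which oxidises ethanol and fatty acids, read 14.10 and 14.13 in the LFD pools, 14.05 and 14.04 in the LFD+As pools, 14.08 and 13.89 in the HFD pools and 13.99 and 14.03 in the HFD+As pools. All 8 arrays lay between 13.89 and 14.13, near the top of the range of the array, and HFD+As differed from LFD by -0.10 ± 0.11 (95% interval -0.35 to 0.15). Cyp2f2, which acts on naphthalene, read 13.93 and 13.95 in LFD and 13.59 and 13.56 in HFD+As, with HFD replicate 2 at 13.56 as well. Its difference was -0.36 ± 0.13 (limma adjusted p = 0.149). With a trended robust variance prior, which called 7.8% of all annotated clusters, it passed (adjusted p = 0.0477). Cyp2u1, a fatty acid hydroxylase, differed by -0.42 ± 0.17 (unadjusted p = 0.0357). Cyp2r1, the vitamin D 25-hydroxylase, differed by -0.09 ± 0.15, Cyp2g1, known from olfactory tissue, by -0.30 ± 0.16, Cyp2s1 by -0.21 ± 0.16, Cyp2t4 by 0.04 ± 0.12 and Cyp2w1 by 0.02 ± 0.16.

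Arsenic on the low-fat diet gave no call among the members. In LFD+As against LFD the limma test called 0 members and 0 clusters, and at an unadjusted p under 0.05 it marked 1 member (1.72%), Cyp2b9, where it marked 2.38% of all clusters. Both LFD+As pools were above both LFD pools for 7 members (12.1%) against 11.2% of all clusters, and below them for 6 (10.3%; Cyp2b9, Cyp2c37, Cyp2c54, Cyp2c70, Cyp2d22 and Cyp2e1) against 15.9%. These shares were near or below the background, and the member median was -0.01, as for all clusters. Next to Cyp2b9, the smallest p-values belonged to Cyp2c37 (-0.23 ± 0.11), Cyp2a22 (-0.46 ± 0.25), Cyp2d22 (-0.22 ± 0.12) and Cyp2c70 (-0.16 ± 0.10).

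Arsenic on the high-fat diet gave differences of both signs. In HFD+As against HFD, limma called 0 members and 0 clusters, and 13 members (22.4%) had an unadjusted p under 0.05, where 19.0% of all clusters did. Of the 13, 10 were higher and 3 lower, while at this mark 6.66% of all clusters were higher and 12.4% lower. This comparison and HFD against LFD share the same HFD pools, so their differences are not independent. Cyp2a22, Cyp2c38, Cyp2c54, Cyp2c67, Cyp2c68 and the clusters of Cyp2a4 and Cyp2a5 and of several Cyp2c symbols were higher here. At the same mark they were lower in HFD against LFD, and Cyp2d40 showed the reverse. The HFD+As pools lay above the HFD pools for 15 members (25.9%; background 22.6%) and below for 15 (background 29.5%). Cyp1a1, the cluster of Cyp2a4 and Cyp2a5, Cyp2d40, Cyp2c67 (0.35 ± 0.10) and the multi-symbol Cyp2c cluster (0.33 ± 0.11) had the smallest p-values. By subfamily the median was 0.62 in Cyp2a, 0.16 in Cyp2b and 0.08 in Cyp2c, and -0.12 in both Cyp2d and Cyp3a. The member median was -0.02, as for all clusters.

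The high-fat diet under arsenic, HFD+As against LFD+As, likewise had 0 adjusted calls. An unadjusted p under 0.05 marked 11 members (19.0%) and 18.4% of all clusters. Of the 11, 10 were lower and 1 higher, with 12.5% of all clusters lower and 5.94% higher. Both HFD+As pools were above both LFD+As pools for 5 members (8.62%, background 21.2%) and below for 22 (37.9%, background 29.4%). By sign, 44 of 58 members (75.9%) were lower, where 52.1% of all annotated clusters were, and the member median was -0.11. Beside Cyp1a1, the smallest p-values were those of Cyp2d22, Cyp2c23 (-0.79 ± 0.23), Cyp2j6 (-0.45 ± 0.14) and Cyp2d13 (-0.41 ± 0.13), which were all lower.

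The interaction test, which asks whether arsenic's difference on the high-fat diet departs from its difference on the low-fat diet, called 0 members and 0 clusters with limma. An unadjusted p under 0.05 marked 7 members (12.1%) and 9.01% of all clusters, 2.9% with a positive and 6.11% with a negative value. It was positive for Cyp1a1, Cyp2a22 (1.08 ± 0.35), the cluster of Cyp2a4 and Cyp2a5 (0.74 ± 0.27), Cyp2b9 (2.19 ± 0.67), Cyp2c38 (0.77 ± 0.26) and Cyp2c68 (0.61 ± 0.21), and negative for Cyp2d40. For Cyp2b9 the positive value came with 3 treated groups at a like level below LFD, and for Cyp1a1 with 1 group above the other 3.

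Among members known to differ between the sexes, 0 passed in HFD against LFD, where 45 of all 58 members (77.6%) and 56.5% of all annotated clusters were lower. Of 8 clusters listed for genes known as higher in female liver (such as Cyp2b9, Cyp2b13, Cyp2c40 and the Cyp3a41 clusters), 8 were lower in HFD than in LFD, with a median of -0.28, and 6 in HFD+As, with a median of -0.30 and 1 call (Cyp2b9). Of 3 known as higher in male liver (Cyp2d9, Cyp2c70 and Cyp2u1), all 3 were lower in both, with medians of -0.18 and -0.33 and 0 calls. Stat5b, which carries the growth hormone signal behind these differences, read 9.87 and 9.75 in the LFD pools, 9.33 and 9.72 in the LFD+As pools, 9.75 and 9.38 in the HFD pools and 9.12 and 8.99 in the HFD+As pools. Its lowest values were those of the HFD+As pools, and Stat5b fell by 0.75 on the log2 scale against LFD (SE 0.17, adjusted p = 0.0410). With the span trend removed the value was -0.60 (adjusted p = 0.0824), and without any 1 array of LFD, LFD+As or HFD+As the adjusted p was 0.0588 to 0.196.

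**Figure D4:**
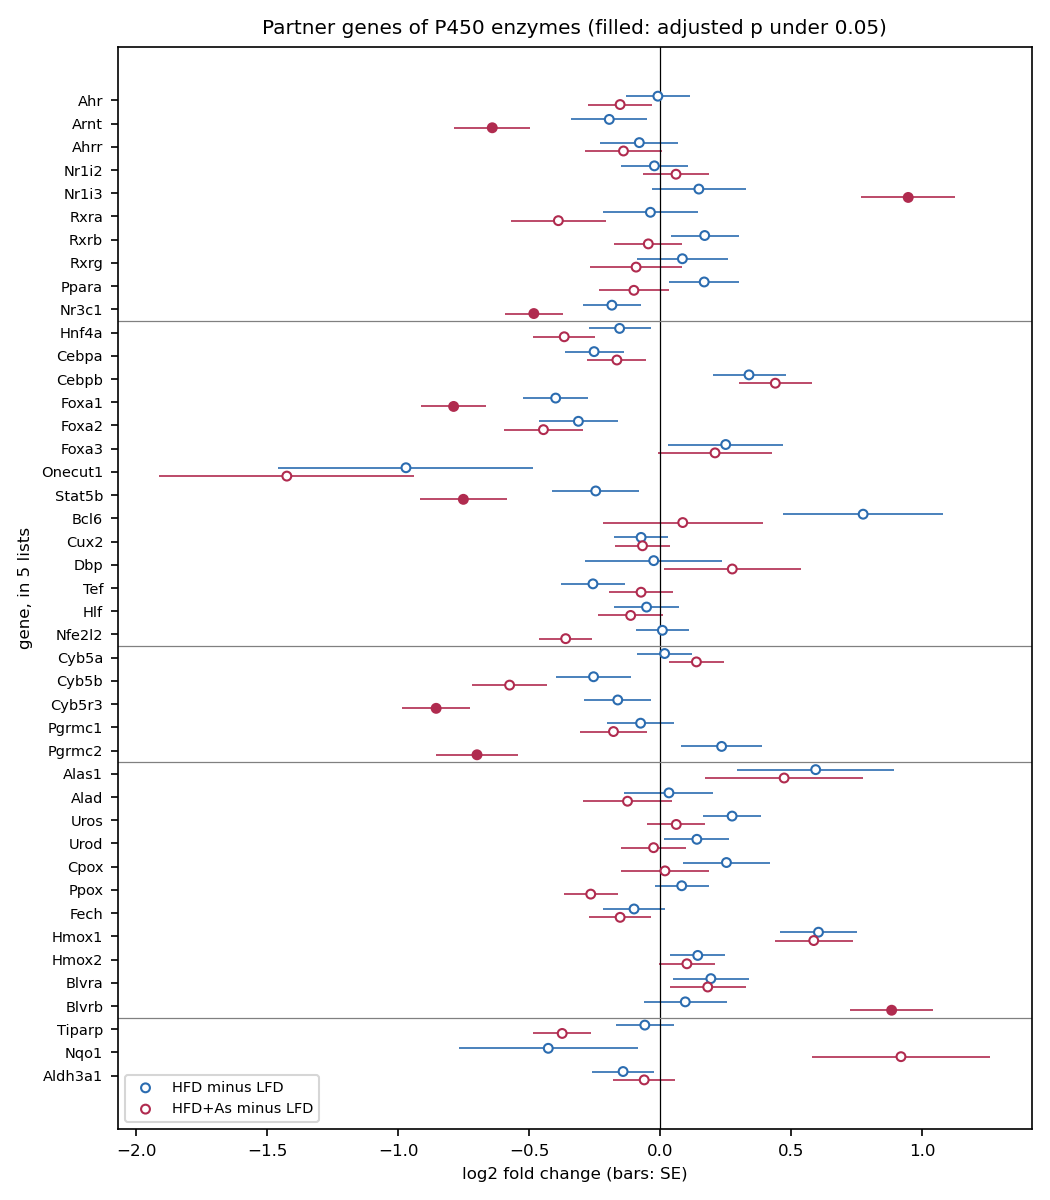
Difference in log2 signal of the genes that regulate or serve P450 enzymes, in 5 lists; bars are 1 standard error, and a filled point passed an adjusted p of 0.05. Nr1i3 and Blvrb lie above 0, and Arnt, Nr3c1, Foxa1, Stat5b, Cyb5r3 and Pgrmc2 below, as filled points in HFD+As against LFD.

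Of the genes that regulate P450 transcription, 5 of 24 passed the test in HFD+As against LFD, where 4.57% of all annotated clusters did. In the other comparisons 0 passed, where 0 clusters did. Each gene was read from its brightest single-symbol cluster, so 4.57% is not a like-for-like share. In HFD+As against LFD, a fit limited to the brightest 60% of clusters called 13.5% of them. With 1 cluster per gene among those, the fit called 16.0%. Of 10 receptors and receptor partners found on single-symbol clusters, 1 rose (Nr1i3) and 2 fell, Arnt and Nr3c1, the glucocorticoid receptor (-0.48 ± 0.11, adjusted p = 0.0436). With the span trend removed, Nr3c1 differed by -0.32 (adjusted p = 0.130). The list's median was -0.12. Of 14 other transcription factors that act on liver P450 genes, 2 fell: Stat5b and Foxa1, a factor that opens liver chromatin. Foxa1 read 10.17 and 9.97 in LFD and 9.28 and 9.28 in HFD+As, a fall of 0.79 on the log2 scale (SE 0.12, adjusted p = 0.0306). Hnf4a, the hepatocyte nuclear factor, differed by -0.37 ± 0.12 (adjusted p = 0.114).

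The genes of electron and haem supply are few, and their calls stand beside the 4.57% of all annotated clusters called in HFD+As against LFD. They too were read from the brightest cluster of each gene. The fit with 1 cluster per gene among the brightest 60% called 16.0% in that comparison. Of 5 genes of electron transfer, 2 fell in that comparison. Cyb5r3, which reduces cytochrome b5, read 13.35 and 13.33 in the LFD pools, 13.11 and 13.38 in the LFD+As pools, 13.28 and 13.08 in the HFD pools and 12.44 and 12.53 in the HFD+As pools. The HFD+As pools were the lowest by more than the range of the other 6 arrays, and Cyb5r3 fell by 0.86 on the log2 scale (SE 0.13, adjusted p = 0.0302). Pgrmc2, a haem chaperone, fell by 0.70 (SE 0.16, adjusted p = 0.0416). With the span trend removed, Pgrmc2 differed by -0.65 (adjusted p = 0.0633). Cyb5a, cytochrome b5 itself, differed by 0.14 ± 0.11, and Por, the reductase, was not analysed here. Of 11 genes of haem synthesis and breakdown 1 rose, Blvrb, a biliverdin reductase (0.88 ± 0.16, adjusted p = 0.0318). Alas1, the rate-limiting enzyme of haem synthesis, differed by 0.47 ± 0.30 (adjusted p = 0.437), by 0.59 ± 0.30 in HFD against LFD and by 0.34 ± 0.30 in LFD+As against LFD, and Hmox1, haem oxygenase, by 0.59 ± 0.15 (adjusted p = 0.0581). All 8 of these partner calls were lost when either LFD array or either HFD+As array was left out, and 7 of 8 without either LFD+As array; 4 (Nr1i3, Foxa1, Cyb5r3 and Blvrb) passed with the span trend removed. Of 5 sinusoidal endothelial markers, 2 fell in the same comparison, Stab2 by 0.91 and Kdr by 0.69 on the log2 scale. The highest of the 5 differed by 0.22, and their summed signal was 4533 to 5514 in HFD+As and 4899 to 5412 in LFD, so the groups overlapped; the part of other cell types in the P450 differences was not tested.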

How the data were processed

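Each of 8 Affymetrix Mouse Gene 1.0 ST arrays received liver RNA pooled from 5 mice, per the labels' protocols. The authors deposited log2 signals per transcript cluster, and per the submitters' processing notes the software was Affymetrix Expression Console 1.0; background correction, normalization and build are not given in the sources used here. The values were used as deposited, with no pseudocount. Gene names came from the platform annotation (21789 clusters with 1 symbol, 1621 with several, 12146 with none). All 53 single-symbol members matched a RefSeq gene (GRCm38.p6), and 0 symbols changed. Probes of close P450 relatives may bind each other's transcripts, so values of near-identical members are uncertain.

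Groups were compared in limma 3.58.1 (R 4.3.3), with one fit of all 8 arrays and 23410 annotated clusters, with no filter on signal, which left 4 residual and 5.29 prior degrees of freedom. Standard errors had a median of 0.131, and the number of arrays limits the precision. Intervals at 95% use the fit's moderated degrees of freedom.

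Named members are those past an adjusted p of 0.05, the 5 smallest p-values in comparisons with fewer than 5 such calls, a list of well-studied members, and the brightest and dimmest cluster of each subfamily; the others were named after their values were seen. The members and lists were chosen with earlier results of these data known. Partner genes and markers were read from single-symbol clusters (43 of 49 partner genes), and the remaining ones were not analysed here. Alternatives were each array left out, the replicate number as a block, filters on signal, all clusters, quantile normalization, removal of a trend with gene span (known for 99.9% of annotated clusters), a trended robust prior, and fits to the compared arrays alone.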

Additional observations from a re-analysis of the deposited data

How the results depend on the processing

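With 2 pools a group, every call among the P450 members depended on single arrays. In HFD+As against LFD, 3 members passed in the fit reported; leaving out 1 array gave 0 to 4, all clusters of the table gave 0, and a fit to the 4 arrays compared gave 1 (Cyp1a1). In HFD against LFD, leaving out 1 array gave 0 to 1 instead of 0, and 1 cluster per gene among the brightest 60% gave 3 (Cyp2d40, Cyp2b9 and Cyp2a22), among 55 of 11963 clusters. That filter gave 1 of 434 calls in HFD+As against HFD (Cyp2d40) and 4 of 1227 in HFD+As against LFD+As (Cyp2d22, Cyp2c55, Cyp2c23 and Cyp2j6), and a trended robust prior gave 1 of 62 (Cyp1a1) and 2 of 867 (Cyp2d22 and Cyp1a1) there. In HFD+As against LFD the same prior gave 4 of 1826 (Cyp1a1, Cyp2d22, Cyp2c70 and Cyp2f2). The labels' replicate numbers are only numbers: deviations of same-numbered arrays correlated at 0.04 to 0.51. With them as a replicate block, with or without removal of the span trend, 4 members passed in HFD+As against LFD, 3 in HFD+As against HFD (Cyp2d40, Cyp1a1 and the cluster of Cyp2a4 and Cyp2a5) and 1 in HFD+As against LFD+As (Cyp1a1). Among all clusters the block called 559 and 98 in the last 2 comparisons (417 and 19 with the span trend removed), and the adjusted p of Cyp1a1 was 0.0153 and 0.0203. In HFD+As against LFD, the calls among all annotated clusters went from 1071 to 0 without LFD replicate 1 or HFD+As replicate 1, 3 without LFD replicate 2 or HFD+As replicate 2, 0 with all clusters of the table, 100 without either LFD+As array, 156 with the 4 arrays alone and 365 with the span trend removed; they went up to 1599 with the replicate block, 1826 with the trended robust prior, 1898 of 14046 in the brightest 60% and 1909 of 11963 with 1 cluster per gene among those. No member passed under any setting in LFD+As against LFD or in the interaction. Of the values of single members, 0 changed sign after being called. The cause of these changes was not tested. Dim members such as Cyp2b13, Cyp2c65 and Cyp3a16 cannot be told from background with these files.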

Other observations

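The pools of a group differed for some members as much as the groups did. The median gap between the 2 pools over the 58 members was 0.121 in LFD, 0.157 in LFD+As, 0.111 in HFD and 0.169 in HFD+As, beside 0.161, 0.103, 0.135 and 0.145 for all annotated clusters. The widest gaps were 1.70 for Cyp2b9 in LFD, 1.13 for Cyp2c55 in LFD+As, 0.721 for Cyp2c23 in HFD and 0.675 for the cluster of Cyp2a4 and Cyp2a5 in HFD+As. LFD+As replicate 2 was the highest of the 8 arrays for 18 of the 58 members and LFD+As replicate 1 for 0, while HFD+As replicate 2 was the lowest for 16 and HFD+As replicate 1 for 12. These counts were made for members only. A shift of a whole array and a trait of the P450 members therefore cannot be told apart here.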
